A study of Mus musculus with 4 samples.

Results

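The Eph, semaphorin, netrin and Slit guidance genes were followed in the foregut endoderm of the early mouse embryo and in the tissues around it. Members were taken by gene symbol from the array's platform annotation, as every ephrin and Eph receptor, every symbol starting with Sema or Plxn, both neuropilins, Ntn1, Ntn4, Dcc, Neo1, the Unc5 receptors, the Slits and the Robos. The rule used no measured value and found 155 probe sets of 68 genes, among 18193 genes with a symbol of their own on the array. A probe set was treated as measured when its log2 intensity exceeded 5 on at least 2 of the 4 arrays, which 40 member probe sets of 28 genes did. Plxna4os1, which the symbol rule also took in, is a noncoding antisense gene.

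All samples came from ARC/s embryos at embryonic day 8.5 with 4 to 5 somites, with no genotype or treatment named in the labels. There were 2 samples labelled as foregut endoderm, from the anterior intestinal portal, and 2 labelled as heart mesoderm joined with mesoderm and ectoderm of the head, called mesoderm/ectoderm here. Each sample was a pool of 15 to 20 tissue pieces, so no value belongs to a single embryo. Samples numbered 1 form experiment 1, dissected mechanically, and samples numbered 2 experiment 2, in which trypsin and pancreatin came before the dissection. Experiment and way of dissection therefore cannot be told apart. Foregut endoderm 2 is called ectoderm in 1 description, and it was kept as endoderm after its title, source and tissue labels. The labels do not say whether the samples of a tissue came from separate litters, so the spread may be partly technical. In a pooled tissue sample, fewer cells of a type and less RNA per cell cannot be told apart either.

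These proteins steer cells and growing axons by contact or at a distance. Ephrins are membrane-bound ligands of the Eph receptor tyrosine kinases and signal in both directions at cell contacts. Semaphorins act through plexins, with neuropilins as co-receptors for most of the secreted ones. Netrins attract through Dcc and Neo1 and repel through Unc5 receptors, while Slits are large secreted ligands of the Robo receptors. In the early embryo the same genes take part in keeping tissues apart, in neural crest migration and in the growth of vessels.

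Endoderm markers followed the labels. Of 15 listed markers of foregut endoderm, 14 lay above the filter on both endoderm arrays, against 7 and 8 on the mesoderm/ectoderm arrays, and Nkx2-1 was at the lowest array values throughout. The marker lists were chosen with earlier results of these data known, so they are no independent check of the labels. Heart muscle markers did not follow them. Their median log2 intensity was 7.71 and 4.45 in endoderm 1 and 2, and 2.76 and 12.50 in mesoderm/ectoderm 1 and 2, and 0 of 15 exceeded the filter in mesoderm/ectoderm 1. For 12 endothelial markers the medians were 6.22 and 3.01 in endoderm and 3.83 and 5.20 in mesoderm/ectoderm, while Pecam1 was at the lowest array values on all 4 arrays. Neural plate markers had medians of 3.54 and 2.78 in endoderm and 7.98 and 6.88 in mesoderm/ectoderm. Between 12470 and 13033 probe sets of an array exceeded the filter.

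With only 2 arrays per tissue, no member passed the tissue test. Limma called 0 of the 28 members and 0% of 13288 probe sets at an adjusted p under 0.05, with a lowest adjusted p of 0.834 among the members' brightest probe sets, that of Slit2, and of 0.832 for a dimmer probe set of Unc5b. Blocking on the replicate number left the count at 0, with a lowest adjusted p of 0.410 among the brightest probe sets. At an unadjusted p under 0.05 limma gave 6 of 28 members, 3 in each direction, against 4.20% of 7802 genes. The blocked fit gave 10 of 28, 7 higher and 3 lower, and 813 of 7802 genes. Ephb1, among the 3 lower in either fit, passed the filter through mesoderm/ectoderm alone and had to be lower. Exact permutation of 2 arrays against 2 cannot go below p = 0.333. Standard errors (SE) of tissue differences are limma's from the fit without the block, unless said otherwise.

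The differences within experiments 1 and 2 are described next, with no test. Every difference is endoderm minus mesoderm/ectoderm in log2 units, every level is a log2 intensity of the gene's brightest measured probe set, and experiment 1 comes first in each pair of values. Past 2-fold on the endoderm side in each of them were Slit2, Unc5b, Plxnb1, Plxnb2 and Sema6c, 5 of the 28 measured genes (17.9%), where 3.54% of all measured genes were. Past 2-fold on the other side in each were Epha7, Ephb1 and Robo1, 3 of 28 (10.7%) against 1.24% of all genes. Ephb1 passed the filter through mesoderm/ectoderm alone and so had to be lower, which leaves Epha7 and Robo1 as lower genes measured in both tissues. Nrp2 was past 2-fold with opposite signs (3.57% of members, 2.03% of all genes). Over all 68 genes and with no filter, 6 were past 2-fold on the endoderm side, Robo2 among them, and 4 on the other, Sema3a among them. The same count over all genes without a filter was not made, so these 2 counts have no share to be set against. The arrays of the tissues did not overlap for 8 members higher in endoderm and 6 lower, 28.6% and 21.4%, against 18.2% and 9.69% of all genes. Of these 6, Ephb1 could not overlap because of the filter. Efnb3 (-0.03 in experiment 1) and Sema4b (-0.03 in experiment 2) were barely apart. The lowest log2 value was 2.25 and 2.27 on the endoderm arrays and 2.28 on each mesoderm/ectoderm array, so unchanged probe sets near it count as lower. The median log2 difference of the 28 was 0.13 in experiment 1 and 0.43 in experiment 2, beside 0.15 and 0.01 over all genes. With median centring the split of 5 higher and 3 lower became 3 and 3, without Plxnb1 and Sema6c. With quantile normalization it was 6 and 3, again without Plxnb1 and with Nrp1 and Sema3f added. The median difference of all probe sets was 0.10 as deposited, -0.08 after centring and -0.01 after quantile normalization.

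**Figure D1:**
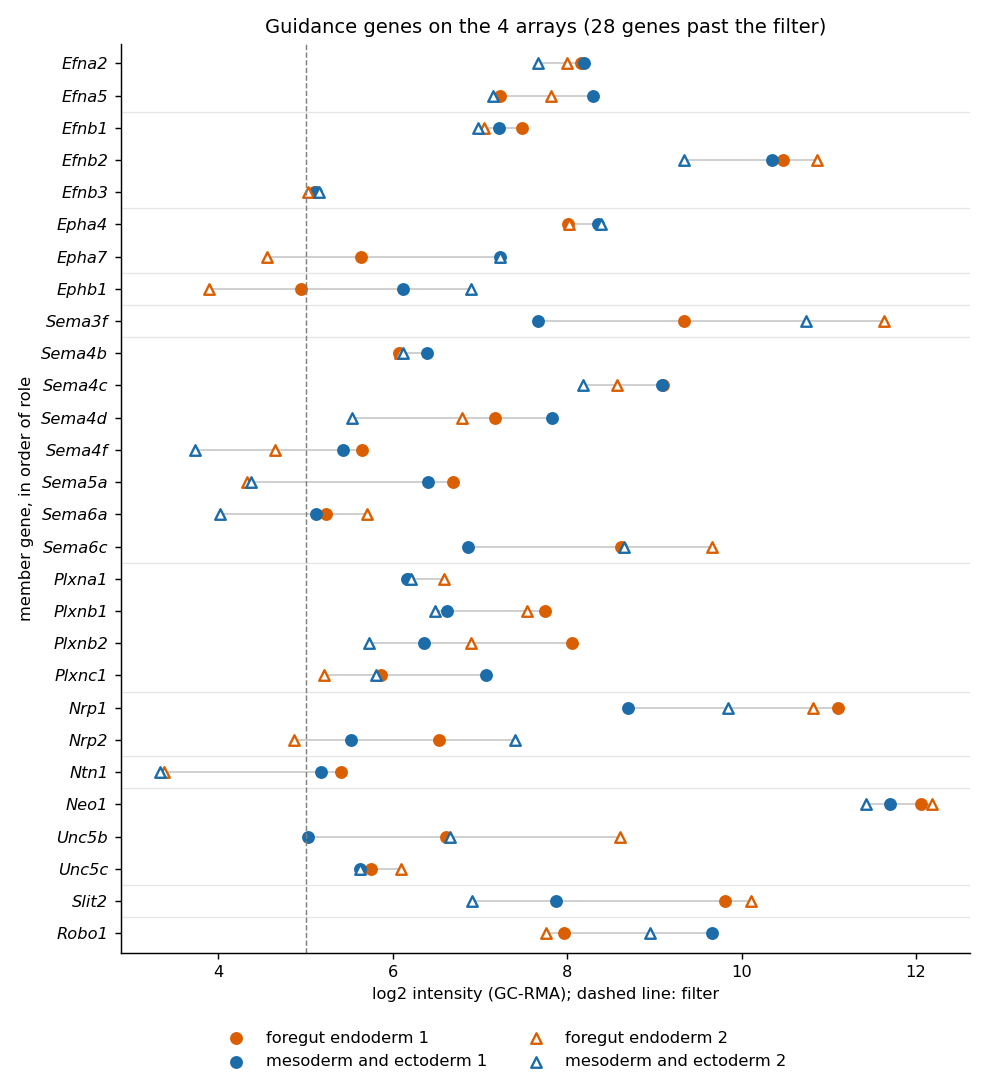
Log2 intensity (horizontal axis, GC-RMA) of the 28 measured guidance genes, each by its brightest probe set, in order of role. Orange marks foregut endoderm and blue mesoderm/ectoderm, circles experiment 1 and triangles experiment 2, and the dashed line is the filter at 5. For Slit2 both orange points lie right of both blue ones, and for Epha7, Ephb1 and Robo1 left of them.

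The upstream sequences of Slit2 and Robo1, a ligand and its receptor with opposite tissue differences, and of Unc5b and Epha7, which stood on either side as well, are shown so that the promoters can be compared. Each run holds the 250 bases before the gene's annotated start (RefSeq, GRCm38.p6), 5′ to 3′ on the gene's strand, and capitals mark every CG dinucleotide. Where a gene had several annotated starts, the one farthest upstream was taken, and which start these tissues use was not tested. Slit2 lies at chr5:47982905-47983154 on the plus strand, Robo1 at chr16:72662899-72663148 on the plus strand, Unc5b at chr10:60831582-60831831 on the minus strand and Epha7 at chr4:28812881-28813130 on the plus strand.
Slit2: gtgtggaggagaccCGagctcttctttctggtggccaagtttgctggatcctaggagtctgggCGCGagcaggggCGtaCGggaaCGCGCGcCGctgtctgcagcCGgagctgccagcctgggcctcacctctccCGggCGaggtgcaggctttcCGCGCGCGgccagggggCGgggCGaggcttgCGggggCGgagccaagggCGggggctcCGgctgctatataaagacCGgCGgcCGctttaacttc
Robo1: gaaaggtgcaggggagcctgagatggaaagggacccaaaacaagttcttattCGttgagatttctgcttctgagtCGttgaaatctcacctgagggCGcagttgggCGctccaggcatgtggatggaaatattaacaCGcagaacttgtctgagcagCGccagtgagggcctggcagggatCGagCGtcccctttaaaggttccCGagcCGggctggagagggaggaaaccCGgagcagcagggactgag
Unc5b: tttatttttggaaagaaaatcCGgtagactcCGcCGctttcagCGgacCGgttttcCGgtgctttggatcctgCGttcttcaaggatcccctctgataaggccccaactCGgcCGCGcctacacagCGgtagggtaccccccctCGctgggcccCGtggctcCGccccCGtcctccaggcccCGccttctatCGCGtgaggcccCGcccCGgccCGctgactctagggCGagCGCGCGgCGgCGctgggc
Epha7: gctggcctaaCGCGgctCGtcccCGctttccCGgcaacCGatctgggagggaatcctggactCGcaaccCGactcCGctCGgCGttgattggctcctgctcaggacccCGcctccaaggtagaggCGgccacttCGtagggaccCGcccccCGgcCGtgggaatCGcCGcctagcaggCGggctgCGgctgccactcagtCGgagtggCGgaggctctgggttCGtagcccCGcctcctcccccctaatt

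CG dinucleotides numbered 25 in the Slit2 run, 11 in that of Robo1, 27 in Unc5b and 25 in Epha7. Over 27025 promoters of the same length the median was 6 and the 95th percentile 30. The GC content was 69.6% for Slit2, 56% for Robo1, 66.8% for Unc5b and 69.2% for Epha7, beside a median of 52%. A forkhead motif, TGTTTNC on either strand, was in 17.9% of all these promoters and in 0 of those of the 8 genes past 2-fold with one sign in each experiment. Of GATA motifs only the form AGATAA was searched, on either strand, and it was in 10.2% of all and in 0 of the 8. The Unc5b run holds TGATAA, which that form leaves out. A Sox motif, ACAAT on either strand, was in 28.2% of all and in 2 of the 8, Ephb1 and Sema6c. These matches describe the letters of a short window only.

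Among the ephrins, 5 of 8 genes were measured and none was past 2-fold with one sign in each experiment. Efnb2, a transmembrane ligand that marks arteries and early boundaries, stood at a log2 intensity of 10.48 and 10.87 on the endoderm arrays of experiments 1 and 2 and at 10.35 and 9.34 on the mesoderm/ectoderm arrays. The tissues did not overlap, but they were only 0.13 apart in experiment 1 and 1.53 in experiment 2. The mean difference was 0.83 ± 0.50 (SE), and became 0.33 without mesoderm/ectoderm 2 and 1.33 without mesoderm/ectoderm 1. A dimmer probe set of Efnb2 gave 0.19 and 0.89. Efna5, a lipid-anchored ligand, had 7.23 and 7.82 in endoderm and 8.30 and 7.15 in mesoderm/ectoderm. Its difference was -1.07 in experiment 1 and 0.66 in experiment 2, so the tissues overlapped. Efna2 (-0.03 and 0.33), Efnb1 (0.26 and 0.07) and Efnb3 (-0.03 and -0.13) were close between the tissues in either experiment. The 3 other ephrins did not reach the filter. Efna1 was closest to it, with 4.29 and 6.08 in endoderm against 3.42 and 4.25.

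Of 13 Eph receptor genes on the array 3 were measured, and Epha7 alone was measured in both tissues with every measured probe set lower in endoderm. Being lower in each experiment was common, at 1895 of 7802 genes. Epha7, a receptor of the ephrin-A class expressed in the neural plate, had log2 intensities of 5.64 and 4.56 in endoderm and 7.23 on each mesoderm/ectoderm array. The mesoderm/ectoderm values were the same to 2 decimals, and both endoderm values lay below them, by 1.59 in experiment 1 and 2.67 in experiment 2, or 3.01-fold and 6.35-fold. The mean difference was -2.13 ± 0.50 (SE). A dimmer probe set of Epha7 had differences of -1.52 and -0.80.

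Ephb1, a receptor of the ephrin-B class, had 4.94 and 3.90 in endoderm and 6.12 and 6.89 in mesoderm/ectoderm. Its difference of -1.18 in experiment 1 and -3.00 in experiment 2 averaged -2.09 ± 0.57 (SE). Both endoderm values were under the filter, as stated above. Epha4, which acts at hindbrain segment boundaries, was close between tissues with its brightest probe set, at 8.01 and 8.02 in endoderm and 8.36 and 8.38 in mesoderm/ectoderm. The direction of Epha4 was not shared by its probe sets, since the others gave -0.41 and 1.10, and 0.44 and 1.27, and the mean over the 3 turned to 0.28 from -0.36. Of the receptors below the filter, Epha2 exceeded it on endoderm 1 alone (5.94), with differences of 1.95 and 0.36. Ephb4, the receptor of Efnb2 in veins, did so on endoderm 2 alone (5.56), with 0.00 and 1.33. Epha1, Epha5, Epha6, Epha8 and Ephb6 were flat, which means that each of their probe sets kept the same log2 distance to the lowest value of its array on all 4 arrays, to within 0.1.

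Epha7 shared its sign with the neural plate markers given above, of which 12 of 14 exceeded the filter on each mesoderm/ectoderm array and 4 on each endoderm array. The summed intensity of these markers was 2026 and 4567 in endoderm and 7796 and 6186 in mesoderm/ectoderm. Neural crest markers (9 genes) had the same sign, with medians of 5.70 and 5.11 in endoderm and 7.48 and 7.27 in mesoderm/ectoderm. Erbb3 among them was higher in endoderm. The part of either marker list in the Epha7 values was not tested.

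Semaphorins were measured for 8 of 20 genes. Sema6c, a transmembrane semaphorin, had 8.62 and 9.66 in endoderm and 6.87 and 8.66 in mesoderm/ectoderm. Its other probe sets were flat, at or near the lowest value of every array. The brightest was higher in endoderm by 1.75 in experiment 1 and 1.00 in experiment 2, the latter at the 2-fold limit. The tissues overlapped, as mesoderm/ectoderm 2 lay just above endoderm 1. The mean was 1.38 ± 0.82 (SE), or ± 0.31 in the blocked fit. That mean became 0.48 without mesoderm/ectoderm 1, 0.86 without endoderm 2 and 2.27 without mesoderm/ectoderm 2. Sema3f, a secreted ligand of Nrp2, behaved likewise, with 9.34 and 11.63 in endoderm and 7.66 and 10.73 in mesoderm/ectoderm. Each experiment placed it higher in endoderm, by 1.68 and 0.90, yet experiment 2 lay 2.68 above experiment 1 when tissue was a term. The mean difference for Sema3f was 1.29 ± 1.44 (SE), or ± 0.32 in the blocked fit. It was -0.25 without mesoderm/ectoderm 1, 0.14 without endoderm 2, 2.43 without endoderm 1 and 2.82 without mesoderm/ectoderm 2. Dropping an array, here and for the other genes, sets arrays of different experiments against each other. The offset between experiments then enters the mean. The Sema3f probe set carries Affymetrix's suffix for probes that may bind other transcripts.

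The other measured semaphorins differed less between tissues. Sema6a (0.12 and 1.69) and Sema4d (-0.65 and 1.27) exceeded 2-fold in experiment 2 only, where Sema4d in mesoderm/ectoderm was at 5.53 against 7.83 in experiment 1. Sema4f (0.22 and 0.93), Sema4c (0.02 and 0.39), Sema4b (-0.32 and -0.03) and Sema5a (0.28 and -0.04) stayed under 2-fold in each. Sema5a followed the experiment, with 6.69 and 6.41 in endoderm and mesoderm/ectoderm of experiment 1 and 4.33 and 4.38 in experiment 2.

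Below the filter, Sema3a, a repellent ligand of Nrp1, was at 3.25 and 2.77 in endoderm and at 5.52 and 4.86 in mesoderm/ectoderm. The tissues did not overlap and the gene was at least 4-fold lower in endoderm in each experiment (4.82-fold and 4.25-fold), but it exceeded 5 on a single array. Sema3e and Sema3g exceeded it on endoderm 1 alone, at 6.38 and 6.27, where their other values ran from 2.61 to 4.07 and from 3.89 to 4.61. Sema3c did so on mesoderm/ectoderm 2 alone, at 5.69.

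Of 3 B plexins on the array, Plxnb1 and Plxnb2 were higher in endoderm. Plxnb1, a receptor of Sema4d that can pair with the Met kinase, had 7.75 and 7.55 in endoderm and 6.63 and 6.49 in mesoderm/ectoderm. Both endoderm values exceeded both others, with differences of 1.12 and 1.06 that averaged 1.09 ± 0.32 (SE), or 2.13-fold. The dimmer probe set of Plxnb1 gave 0.96 and 2.40. Plxnb2, a receptor of class 4 semaphorins, had 8.05 and 6.89 in endoderm and 6.36 and 5.73 in mesoderm/ectoderm. It did not overlap either, and its differences of 1.69 and 1.16 averaged 1.43 ± 0.57 (SE), which became 0.85 without endoderm 1.

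Plxnc1, the receptor of Sema7a, lay on the other side, at 5.86 and 5.21 in endoderm and 7.07 and 5.80 in mesoderm/ectoderm. The differences of its brightest probe set were -1.20 and -0.60, and those of a dimmer probe set -1.39 and -3.00, but the latter passed the filter through mesoderm/ectoderm alone and had to be lower. The mean of -0.90 ± 0.60 (SE) for the brightest became -0.27 without mesoderm/ectoderm 1, -0.57 without endoderm 2 and -1.53 without mesoderm/ectoderm 2. Plxna1, a signalling partner of neuropilins, was close between the tissues (0.01 and 0.38). The remaining plexins did not reach the filter, and Plxna3, Plxna4 and Plxnb3 were flat.

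Both neuropilins were measured. Nrp1, the co-receptor of Sema3a and of vascular endothelial growth factor, had 11.11 and 10.82 in endoderm and 8.70 and 9.84 in mesoderm/ectoderm. Its endoderm values were above both others, by 2.41 in experiment 1 and 0.98 in experiment 2, just short of 2-fold in the latter. The mean was 1.70 ± 0.53 (SE), or 3.24-fold, and 1.12 without mesoderm/ectoderm 1. All 4 measured probe sets of Nrp1 had positive differences, lying between 1.71 and 2.71 in experiment 1 and between 0.40 and 0.98 in experiment 2.

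Nrp2, the co-receptor of Sema3f, had opposite signs in the experiments with its only measured probe set. It stood at 6.53 and 4.87 in endoderm and at 5.53 and 7.41 in mesoderm/ectoderm, which is 1.01 higher in endoderm in experiment 1 and 2.54 lower in experiment 2. The mean of -0.77 ± 0.97 (SE) was -1.60 without endoderm 1, -1.71 without mesoderm/ectoderm 1, 0.07 without endoderm 2 and 0.17 without mesoderm/ectoderm 2. Probe sets of Nrp2 below the filter did not share the positive value of experiment 1, as they gave -0.71 and -1.86, 0.00 and -1.87, and -0.03 and -0.02. The last pair matched the offset between the lowest values of the arrays and gives no direction. Plxnd1, the endothelial receptor of Sema3e, did not reach the filter and switched sign like the measured probe set of Nrp2. It stood at 6.42 and 3.60 in endoderm and 4.65 on each mesoderm/ectoderm array. Its difference was 1.77 in experiment 1 and -1.05 in experiment 2. Lists of markers of several cell types had the same pattern in their medians or summed intensity, though not in every gene. Of 12 endothelial markers, 7 exceeded the filter in endoderm 1, 2 in mesoderm/ectoderm 1, 1 in endoderm 2 and 6 in mesoderm/ectoderm 2, and their summed intensity was 902 and 206 in endoderm and 264 and 632 in mesoderm/ectoderm. Kdr, the receptor of vascular endothelial growth factor, was 3.10 higher in endoderm in experiment 1 and 2.92 lower in experiment 2. The summed intensity of the 15 heart muscle markers was 14994 and 1292 in endoderm and 145 and 118305 in mesoderm/ectoderm. Nkx2-5 among them was higher in endoderm in each experiment. Markers of head and heart mesenchyme (11 genes) had medians of 7.25 and 4.28 in endoderm and 5.64 and 5.51 in mesoderm/ectoderm, with 9 and 5 against 7 and 7 above the filter. Of these, Foxc1, Pdgfrb, Prrx1 and Tbx1 were higher in endoderm in each experiment and Zeb2 was lower in each. The summed intensity of 6 red blood cell markers was 2389 and 214 in endoderm and 415 and 2449 in mesoderm/ectoderm. Of those 6, only Hbb-bh1 and Hbb-y exceeded the filter on any array. The part of any of these marker lists in the values of Nrp2 and Plxnd1 was not tested.

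**Figure D2:**
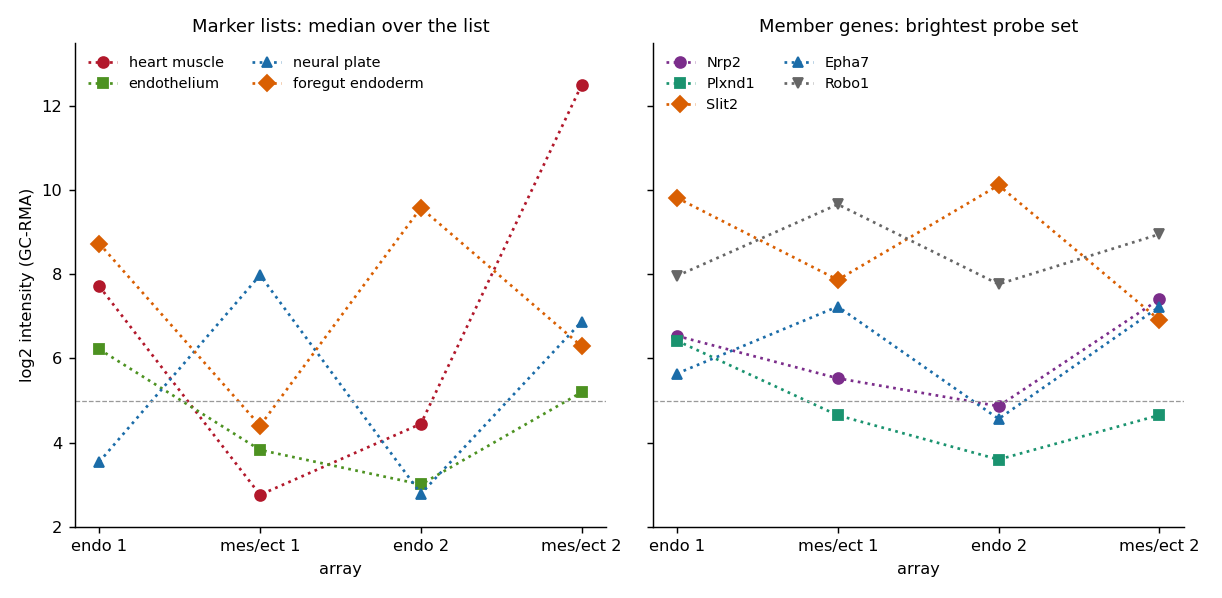
Log2 intensity (vertical axis, GC-RMA) by array, endo being foregut endoderm and mes/ect mesoderm/ectoderm, as the median over 4 marker lists (left) and for 5 guidance genes by their brightest probe set (right). Dotted lines only join the points of a list or gene, and the dashed line is the filter at 5. Nrp2 and the endothelial list are both higher on endoderm 1 than on mesoderm/ectoderm 1 and lower on endoderm 2 than on mesoderm/ectoderm 2, while Slit2 is higher in endoderm in each experiment.

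Of the netrin system, 4 of 8 genes were measured. Unc5b, a repulsive netrin receptor of vessels and axons, had 6.61 and 8.61 in endoderm and 5.03 and 6.66 in mesoderm/ectoderm. It was 1.58 higher in endoderm in experiment 1 and 1.95 in experiment 2 (2.98-fold and 3.86-fold), but mesoderm/ectoderm 2 lay just above endoderm 1, so the groups overlapped. Mean and SE were 1.76 ± 0.99, or ± 0.25 in the blocked fit. That mean became 0.76 without endoderm 2, 0.95 without mesoderm/ectoderm 1, 2.57 without mesoderm/ectoderm 2 and 2.76 without endoderm 1. A dimmer probe set of Unc5b gave 1.90 and 1.85, but it passed the filter through endoderm alone and had to be higher.

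Neo1, a receptor of netrins and of repulsive guidance molecules, had 12.05 and 12.18 in endoderm and 11.70 and 11.43 in mesoderm/ectoderm. The tissues did not overlap, with small differences of 0.35 and 0.76, or 0.55 ± 0.32 (SE) on average. Its probe sets were not alike, as another gave -1.14 and 4.14. Ntn1, the ligand, followed the experiment, at 5.40 and 5.18 in endoderm and mesoderm/ectoderm of experiment 1 and 3.38 and 3.33 in experiment 2. Unc5c was close between tissues (0.13 and 0.47). Unc5a, Unc5d and Ntn4 were flat, and Dcc, the attractive netrin receptor, did not exceed 2.91.

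**Figure D3:**
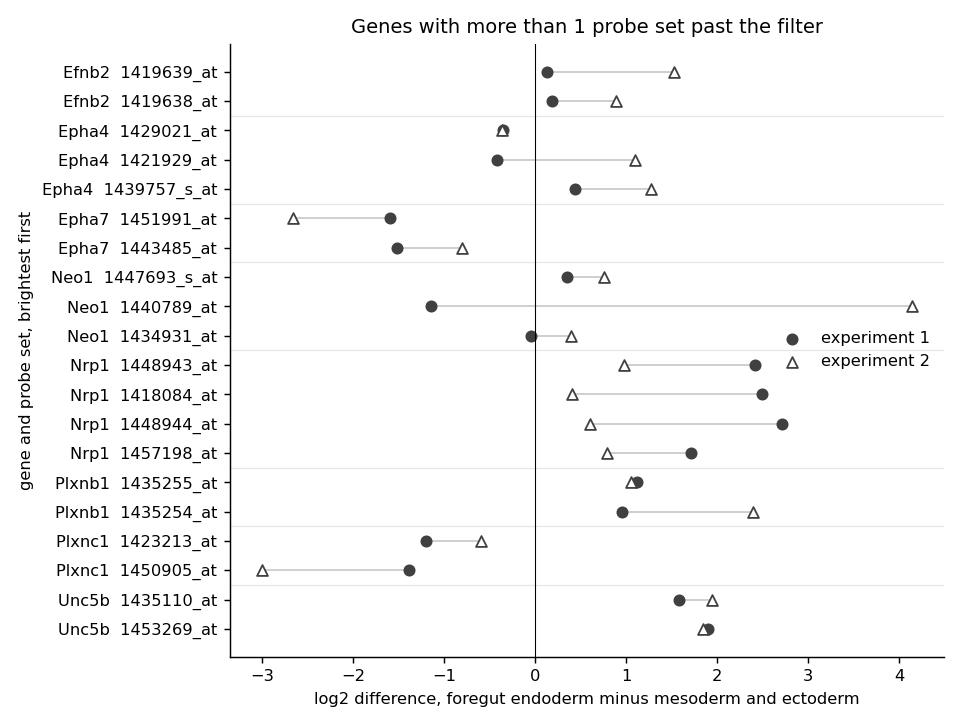
Tissue difference (horizontal axis, log2, foregut endoderm minus mesoderm/ectoderm) of each measured probe set of the 8 guidance genes that had more than 1, brightest first. Filled circles are experiment 1 and open triangles experiment 2. The 4 probe sets of Nrp1 and both of Unc5b lie right of 0 in each experiment, whereas those of Epha4 and Neo1 lie on both sides.

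A Slit ligand and a Robo receptor stood on opposite sides. Slit2, a secreted repellent of axons and migrating cells, had 9.81 and 10.11 in endoderm and 7.87 and 6.91 in mesoderm/ectoderm. Both endoderm values exceeded both others, with differences of 1.95 and 3.20, or 3.86-fold and 9.20-fold. The mean of 2.57 ± 0.48 (SE), 5.96-fold, lay between 2.10 and 3.05 when single arrays were dropped. Another probe set of Slit2, above 5 on endoderm 2 alone, gave -0.03 and 3.03.

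Robo1, the receptor, had 7.96 and 7.76 in endoderm and 9.66 and 8.95 in mesoderm/ectoderm. Here the mesoderm/ectoderm values were higher without overlap, and the differences were -1.70 and -1.19, or -1.44 ± 0.41 (SE). Dropping single arrays gave -1.80 to -1.09. Robo2, below the filter, was on the side of Slit2, at 4.95 and 4.46 in endoderm and 3.58 and 2.29 in mesoderm/ectoderm, differences of 1.37 and 2.17. Slit1 and Robo4, the latter an endothelial Robo, were flat, and Slit3 did not exceed 3.46.

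**Figure D4:**
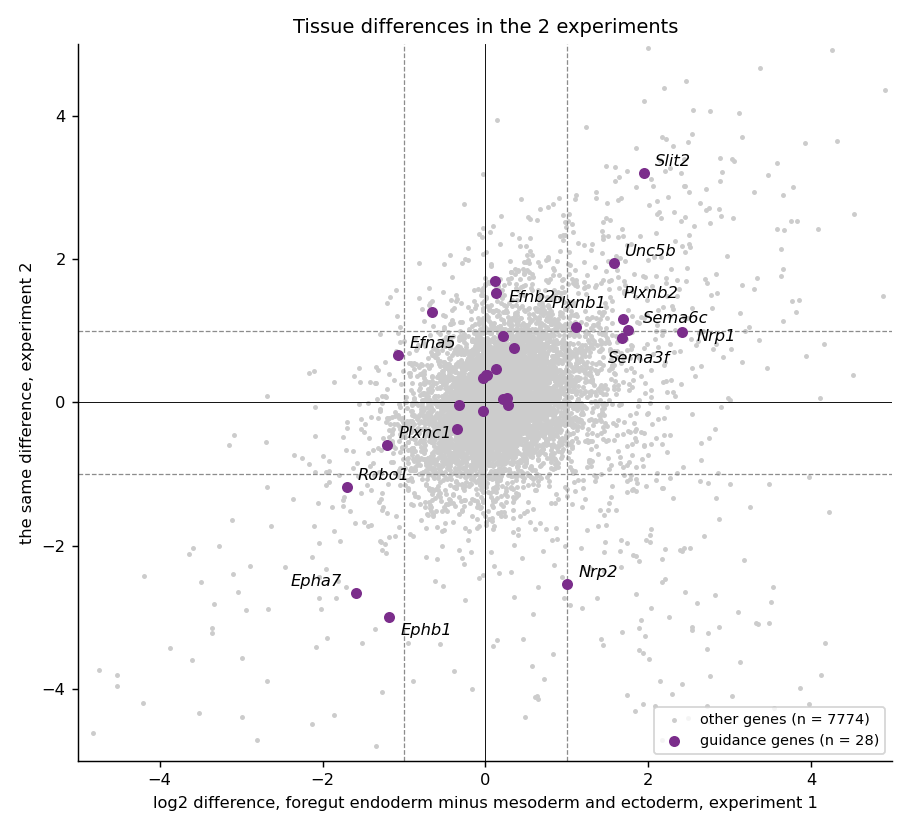
Log2 tissue difference in experiment 1 (horizontal axis) against experiment 2 (vertical axis), each as foregut endoderm minus mesoderm/ectoderm, for 28 guidance genes (purple) and 7774 other genes (grey). Dashed lines mark 2-fold, and 49 genes lie beyond the axis limits of 5. Slit2 and Unc5b lie furthest into the upper right among guidance genes, Epha7 and Ephb1 into the lower left, and Nrp2 (1.01 and -2.54) sits in the lower right.

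Between the experiments, with tissue held as a term, limma called 0 of 28 members and 0% of 13288 probe sets, with a lowest adjusted p of 0.0966 in either set. Here the SEs come from the fit that holds both tissue and experiment. At an unadjusted p under 0.05 there were 8 of 28 members, a share near the 28.0% of all genes. Experiment 2 was lower for Sema5a by -2.20 ± 0.24 and Ntn1 by -1.94 ± 0.23 (log2 ± SE), and higher for Sema3f by 2.68 ± 0.32 and Unc5b by 1.81 ± 0.25.

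Partners of these pathways were drawn from 4 further lists of genes, and limma called 0 of their measured members. At an unadjusted p under 0.05 limma gave 1 partner of Eph and ephrin signalling, 3 of semaphorin signalling and 0 of either other list, beside 4.20% of all genes. Past 2-fold in each experiment were 3.54% of all genes on the endoderm side and 1.24% on the other. Of 24 measured Eph and ephrin partners, 1 was past 2-fold on the endoderm side in each experiment and 0 on the other side. This was Pdzrn3, a ubiquitin ligase with PDZ domains, with differences of 2.33 and 1.01. The list's median differences were 0.36 and 0.14. Of 18 partners of semaphorin signalling, 2 were higher and 2 lower, with medians of 0.17 and -0.28. Met, the receptor kinase that B plexins bind, was higher at 1.73 and 3.23, and Vegfa, a growth factor that binds Nrp1, at 1.02 and 2.63. Crmp1, a cytoplasmic mediator of Sema3a signals, was lower at -2.68 and -3.89, but it passed the filter through mesoderm/ectoderm alone and had to be. The adhesion molecule Nrcam was lower at -2.67 and -2.88. Met and Plxnb1 were higher in the same tissue, as were Vegfa and Nrp1. Not every pair matched, as Kdr had opposite signs (3.10 and -2.92) and Sema3a was lower in endoderm while Nrp1 was higher. Of 15 netrin partners (medians 0.49 and 0.11) and 13 Slit and Robo partners (0.40 and 0.28), 0 were past 2-fold with one sign in each experiment.

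Of the 40 members that did not reach the filter, 9 exceeded it on 1 array, and 15 were flat in every probe set. For the flat members the arrays give no difference between tissues, and absence of the transcript was not shown.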

How the data were processed

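Per the labels' protocols, column-purified RNA went through linear amplification and biotin labelling before hybridization to MOE430 chips of Affymetrix. The authors deposited a linear intensity per probe set, obtained by GC-RMA with GenePattern software as the series' design text says (RMA in the submitters' processing notes). No version or setting is named in the sources used here. The linear scale was read from the values.

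Log2 was taken here. Of 45101 probe sets, 64 controls were left out and 13288 had a log2 value above 5 on at least 2 arrays. Each gene is given by its kept probe set with the highest mean over the 4 arrays, and probe sets with several symbols were not named. Symbols of all 68 members matched RefSeq gene identifiers. Levels of different probe sets were not compared, as each binds with its own strength.

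Tissues were compared as foregut endoderm minus mesoderm/ectoderm with limma 3.58.1 in R 4.3.3 (two-sided, Benjamini-Hochberg over all kept probe sets, threshold 0.05), and experiment 2 with experiment 1 in a fit that holds tissue. The tissue fit without the block and the differences within experiments were tested on simulated data that held no experiment effect. The blocked fit and the fit between experiments were not tested so. Sample numbers pair the arrays, because the labels' protocols give each number its own way of dissection (the series' design text names the enzymes without a number), and deviations from the tissue means of same-numbered arrays had a correlation of 0.56 across probe sets. The number of arrays limits the precision. Every member with a kept probe set is named, and up to 4 partners a list past 2-fold with one sign in each experiment. Members, lists and motifs were chosen with earlier results of these data known. Quantile normalization, median centring, other filters, log2(value + 16), the mean of probe sets, the block and leaving out arrays were tried as alternatives.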

Additional observations from a re-analysis of the deposited data

Results flagged for a closer look

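The measured probe set of Nrp2 had a log2 tissue difference of 1.01 in experiment 1 and -2.54 in experiment 2, so that each experiment placed it on the other side. Its probe sets below the filter gave -0.71 and -1.86, 0.00 and -1.87, and -0.03 and -0.02. The last pair matched the offset between the lowest values of the arrays, so only the first pair gave a clear direction in each experiment. A dimmer probe set of Neo1 switched sign as well, at -1.14 and 4.14. Its log2 intensities were 8.16 and 8.44 in endoderm and 9.30 and 4.30 in mesoderm/ectoderm. The brightest Neo1 probe set gave 0.35 and 0.76. Neither switch of sign was tested, as each experiment holds 1 array per tissue.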

How the results depend on the processing

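The tissue test called 0 members and 0 probe sets under every alternative run, the replicate block included (0 and 0, against a lowest adjusted p over all probe sets of 0.351 with the block and 0.724 without). Counts past 2-fold with one sign in each experiment depended on scale. With an array dropped, the remaining array of its tissue was set against both arrays of the other tissue. Such counts therefore hold a difference that crosses the experiments. The 5 higher members became 3 with median centring (Plxnb2, Slit2 and Unc5b) and 2 with log2(value + 16) (Slit2 and Unc5b), and numbered 4 to 6 when single arrays were dropped. The 3 lower members numbered 2 to 4 when single arrays were dropped, with Robo1 missing without mesoderm/ectoderm 1 or endoderm 2, and Ephb1 was missing with log2(value + 16). Plxnc1 joined the lower genes with the filter at 6 and with the mean of probe sets. With quantile normalization the higher members numbered 6, with Nrp1 and Sema3f added and Plxnb1 lost. The single member with opposite signs became 0 with quantile normalization, median centring and log2(value + 16) and 2 without a filter, where Plxnd1 was added, and 0 to 1 when single arrays were dropped (0 without either mesoderm/ectoderm array, Sema4d without endoderm 1 and Sema3f without endoderm 2 in place of Nrp2). Between experiments, 3 members passed with quantile normalization (Ntn1, Sema3f and Sema5a, among 912 probe sets or 6.85%) and 2 with median centring (Sema3f and Sema5a, among 423 or 3.18%), against 0 as deposited. That test leaves no residual degree of freedom with an array left out and was not run so. Without a filter, Robo2 joined the higher and Sema3a the lower genes. The mean differences of the 8 genes past 2-fold kept their sign under every alternative run. These genes were picked for one sign in each experiment, and the other filters and the block could not change their means. The kept sign is therefore no independent support.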
